A study of Caenorhabditis elegans with 4 samples.

Results

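The deposited combined list of DVE-1 binding sites held 451 peaks on the X chromosome, of 3702 in the whole list. They were taken as every peak whose chromosome field read X, so position alone chose them and neither strength nor width did. They were set against the 2730 peaks of chromosomes II to V, and chromosome I was not compared here. Replicate 1 of the ChIP had 143 of its 1550 peaks on X, and replicate 2 had 215 of 2142. All positions are in WormBase WS180, and each peak is given by its start, its end and its q-value, the false discovery rate that the authors' peak caller assigned to it.

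DVE-1 is a homeodomain protein of Caenorhabditis elegans related to the mammalian SATB factors. It is known to gather in intestinal nuclei when mitochondria are stressed, and to act there in the transcriptional response to misfolded mitochondrial proteins. The X chromosome differs from the autosomes in this animal: it carries the dosage compensation complex, which lowers its transcription in hermaphrodites, it is largely silent in the germ line, and its genes are spread more evenly than those of the autosomes, which crowd in the chromosome centres. These points are background and were not measured here.

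ChIP-seq reads the DNA that an antibody pulls down with a protein. The animals were L4 larval hermaphrodites of strain OP398, kept at 20 °C. All libraries share its genotype: the mutation unc-119(ed3) on chromosome III and the transgene wgIs398, brought in by bombardment, which joins the tagged gene dve-1::TY1EGFPFLAG to unc-119(+), beside the animal's own dve-1. There were 2 ChIP libraries, made with antibodies against GFP, and 2 input libraries, and nothing in the labels says that replicates 1 and 2 came from separate cultures. Peak lists were analysed for the ChIP libraries and their combination, while the input libraries were not analysed here. Whole worms were used, so fewer cells with DVE-1 at a site and less DVE-1 per cell cannot be told apart. The lists carry no read counts, and the depth behind each peak is unknown.

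The gene dve-1 itself lies on X in the RefSeq table of assembly WBcel235, and DNA of the transgene copy and of the animal's own copy cannot be told apart. Which peak, if any, lies in it was not determined here, because that table and the peaks are in different builds. For the same reason no gene is named at any site below.

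All of the 10 strongest peaks on X were also called in both replicates. This was not particular to X: in the strongest 10% of the combined list, 287 of 289 peaks on II to V (99.3%) and all 40 on X were. The 10 strongest were spread over the whole length of X, with 4 in the left 25%, 3 in the central 50% and 3 in the right 25%. Most were compact, 6 of them under 1200 bp wide.

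The strongest, X:16929273-16932013 near the right tip, was 2741 bp wide with a combined q-value of 3.51e-177. Its q-value was 7.84e-72 in replicate 1 and 2.36e-98 in replicate 2, and it stood isolated, 129627 bp after the peak before it and 63698 bp before the next. The second, X:6251584-6257536, was 5953 bp wide (q = 1.81e-94) and lay 732 bp from its left neighbour. These sites differ in shape as well as in rank: the second was wider than the first and had a close neighbour.

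In the left 25% lay the peaks X:438323-442543 (4221 bp, q = 7.23e-86), X:1503374-1505242 (1869 bp, q = 3.51e-74), X:4208476-4209646 (1171 bp, q = 2.89e-67) and X:2996366-2997489 (1124 bp, q = 1.61e-66). In the centre, X:11093684-11094455 reached q = 3.64e-71 over 772 bp, and X:8035906-8036946 reached 2.70e-58 over 1041 bp. In the right 25%, X:14525372-14526325 (954 bp) had q = 3.33e-61 and X:16056040-16056898 (859 bp) had q = 4.88e-56. For 9 of the 10 the widths called in the replicates were within 1.2 times of each other, as at X:11093684-11094455, which was called over 720 bp in replicate 1 and 743 bp in replicate 2. The exception was the peak at X:438323-442543. Its call in replicate 1 spanned 2997 bp (X:438379-441375), inside a call of 16345 bp in replicate 2 (X:425489-441833) that began before the combined peak and stopped short of its right end. That call was the widest of replicate 2 on X, and no second combined peak lay in it.

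The widest peaks on X were a mostly different set, sharing 2 members with the strongest. The widest of all was X:4142072-4148894 in the left 25%, at 6823 bp (q = 9.16e-43). Replicate 2 called it as 1 interval of 6729 bp, and replicate 1 split it into 2 peaks, the stronger of 4522 bp. Next to the 5953 bp and 4221 bp sites already given, 5018 bp at X:2968055-2973072 and 4895 bp at X:6740290-6745184 completed the 5 peaks over 4000 bp.

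The other members of the 10 widest measured 3514 to 3849 bp, and 4 of the 10 lay in the left 25%, 5 in the centre and 1 in the right 25%. All of the 10 widest were among the strongest 112 peaks of X. The weakest of them by q-value, X:9261449-9265178, was 3730 bp wide and ranked 84 of 451 on X (q = 1.03e-13). It was also the member of the 10 that both replicates did not share, with 2 peaks in replicate 2 and no peak in replicate 1.

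**Figure D1:**
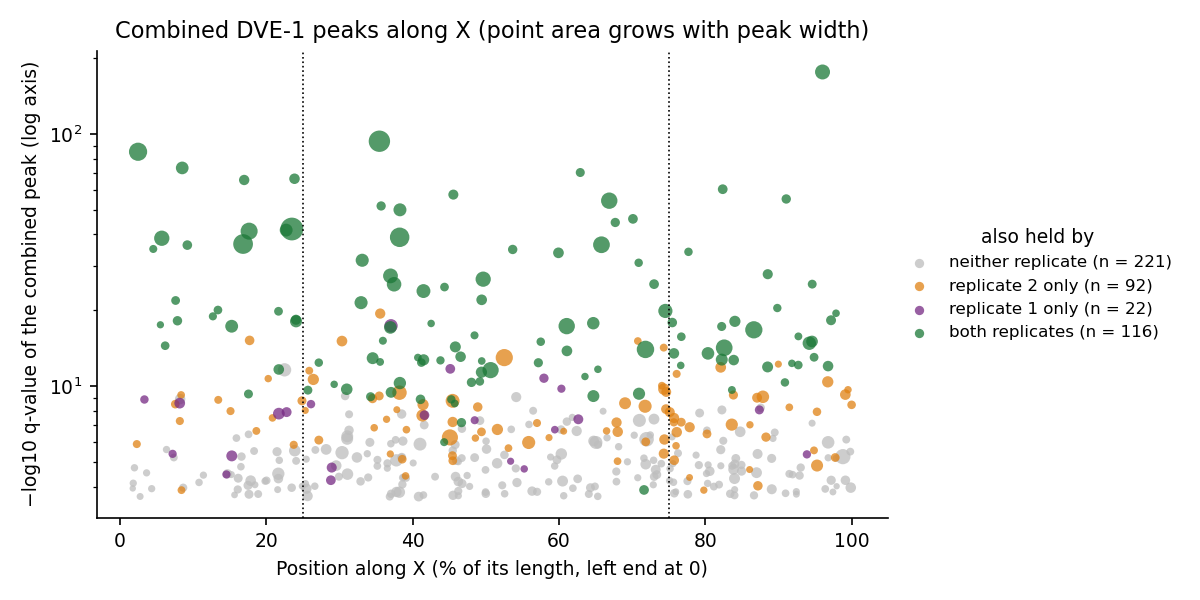
Each point is 1 of the 451 combined peaks on X, placed by its midpoint as a percentage of the chromosome's length (horizontal) and by −log10 of its q-value (vertical, log axis); area grows with width, colour gives the replicate lists that also hold the peak, and dotted lines mark the outer 25% on each side. Peaks held by both replicates (n = 116) fill the top of the plot along the whole chromosome, and those held by neither (n = 221) lie at its foot.

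The first comparison asked how densely X was occupied. X carried 25.6 combined peaks per Mb, against 40.5 per Mb on II to V pooled, a ratio of 0.632 (exact two-sided binomial p = 1.73e-21, adjusted over the 9 tests of this report p = 1.56e-20). Replicate 1 had 8.11 peaks per Mb on X, against 18.3 on II to V, and replicate 2 had 12.2, against 24.9. X was sparser than each of II, III, IV and V in all 3 lists, with 34.9 per Mb on V as the nearest in the combined list.

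Per gene the contrast was smaller and its order depended on the list. X had 165 combined peaks per 1000 protein-coding genes, against 190 on II to V (ratio 0.869, exact binomial p = 0.00538), but V had fewer than X, 146. In the replicate lists X was lowest of the 5 chromosomes, at 52.4 in replicate 1 and 78.8 in replicate 2, next to 61.5 and 87.5 on V. The binomial tests and the Fisher tests below take peaks as independent, which neighbouring peaks are not. With chromosomes as units, 1 against 4 cannot give a permutation p below 0.2.

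Spacing followed the density. The median gap between neighbouring combined peaks was 19.9 kb on X, against 9.83 kb on II to V and 12.1 kb on V, the widest-spaced autosome of that set. The stretch before the first combined peak of X was long: that peak started at position 312353, whereas the first peak started at 24455 on II, 14698 on III, 51090 on IV and 8080 on V. Between peaks the 3 longest gaps on X were also in its left 25%, at 1627563 to 1909342 (281.8 kb), 2014916 to 2242652 (227.7 kb) and 2372563 to 2568998 (196.4 kb). Neither replicate had a peak in any of the 3. That adds little, because the combined list overlapped all 143 replicate 1 peaks of X and 213 of the 215 of replicate 2. Long gaps were not particular to X, whose longest was 281780 bp. The longest gap was 391827 bp on II, 345271 bp on IV and 311047 bp on V, but 176639 bp on III. The left 25% of X thus combined long empty stretches with 4 of the 10 strongest sites.

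In windows of 1 Mb the combined count on X ran from 11 to 45 over 17 full windows, with a median of 24, against a median of 40 over 65 windows of II to V. The emptiest windows were the first (11 peaks), the second (17 peaks) and, at 18 peaks each, the third and the tenth, from 9000001 to 10000000. The fullest were the seventh, from 6000001 to 7000000 (45 peaks), the ninth, from 8000001 to 9000000 (42), and the fourteenth, from 13000001 to 14000000 (37). The eighth window, between the 2 fullest, had 21, so the crowding of the mid-left centre was in 2 separate blocks. In order these windows held 15, 13 and 14 peaks in replicate 1, with no such dip, and 25, 14 and 20 in replicate 2.

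The replicates disagreed most in the fourteenth window. Replicate 1 had 6 peaks there and replicate 2 had 23, and 17 of the 92 combined X peaks held by replicate 2 alone lay in it, with 0 held by replicate 1 alone. As a description, window counts of the replicates had a Spearman rho of 0.743 over the 17 windows of X, and of 0.913 to 0.957 within II, III, IV and V (13 to 20 windows each). Windows of X also held fewer peaks, with a median of 8 in replicate 1 and 11 in replicate 2, against 18 and 26 on II to V, and the part of this in the lower rho was not tested.

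**Figure D2:**
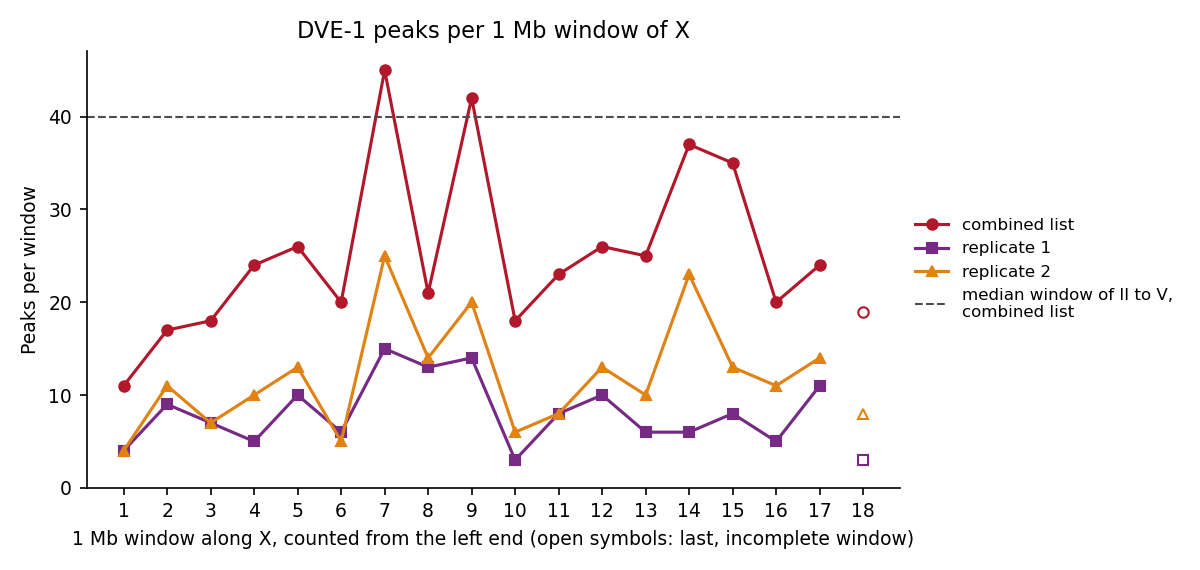
Peaks per 1 Mb window (vertical) along X from its left end (horizontal), by midpoint, in the combined list and in each replicate list; open symbols mark the last, incomplete window and the dashed line is the combined median of II to V, 40. Of the 17 full windows, the seventh and ninth rise above that line, with 45 and 42 combined peaks.

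The next comparison set the ends against the centre. The central 50% of X held 243 of its 451 combined peaks (53.9%, exact Clopper-Pearson 95% interval 49.2 to 58.6), against 1698 of 2730 on II to V (62.2%, 60.3 to 64.0), a difference of -8.32 points (Fisher's exact two-sided p = 0.00101, adjusted p = 0.00227). X was below each autosome of the set, at 61.5% on II, 57.9% on III, 63.0% on IV and 66.2% on V. The interval of III (54.1 to 61.6) overlapped that of X. Intervals cover counting error only. In replicate 1 the shares were 55.2% on X and 63.7% on II to V, and in replicate 2 they were 53.5% and 62.8%. The difference had the same sign in both, but it missed the 0.05 threshold in the list of replicate 1 (Fisher's exact p = 0.0547). It also missed it among combined peaks held by both replicates (-9.03 points, Fisher's exact p = 0.0684).

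The ends of X were unlike each other in the combined list. Its left 25%, to about 4.41 Mb, had 82 peaks or 18.6 per Mb, and its right 25%, from about 13.2 Mb, had 126 or 28.6 per Mb, slightly above the 27.6 per Mb of its centre. The ratio of left to right was 0.651 (exact two-sided binomial p = 0.00278, adjusted p = 0.00500). Replicate 2 gave 39 and 61 peaks (ratio 0.639, exact binomial p = 0.0352). Replicate 1 had 32 in each end, a ratio of 1, so the asymmetry was not seen in its list. The ratio also missed the 0.05 threshold in the stronger 50% of the combined list (0.745, exact binomial p = 0.203) and among peaks held by both replicates (0.767, exact binomial p = 0.410). Unequal ends were not particular to X. In the combined list the left and right 25% had 63 and 164 peaks on II, 127 and 169 on III, 156 and 106 on IV, and 123 and 124 on V. These autosomal counts were not tested.

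Part by part, the deficit of X against II to V was greatest in the centre. The centre had 27.6 combined peaks per Mb on X, against 50.4 on II to V, and X was below each of the 4. The left end had 18.6 on X, against 27.8 on II to V, but II was lower still at 16.5. The right end had 28.6 on X, against 33.4 on II to V, and X was above IV (24.3) and V (23.7). These values by part were not tested.

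**Figure D3:**
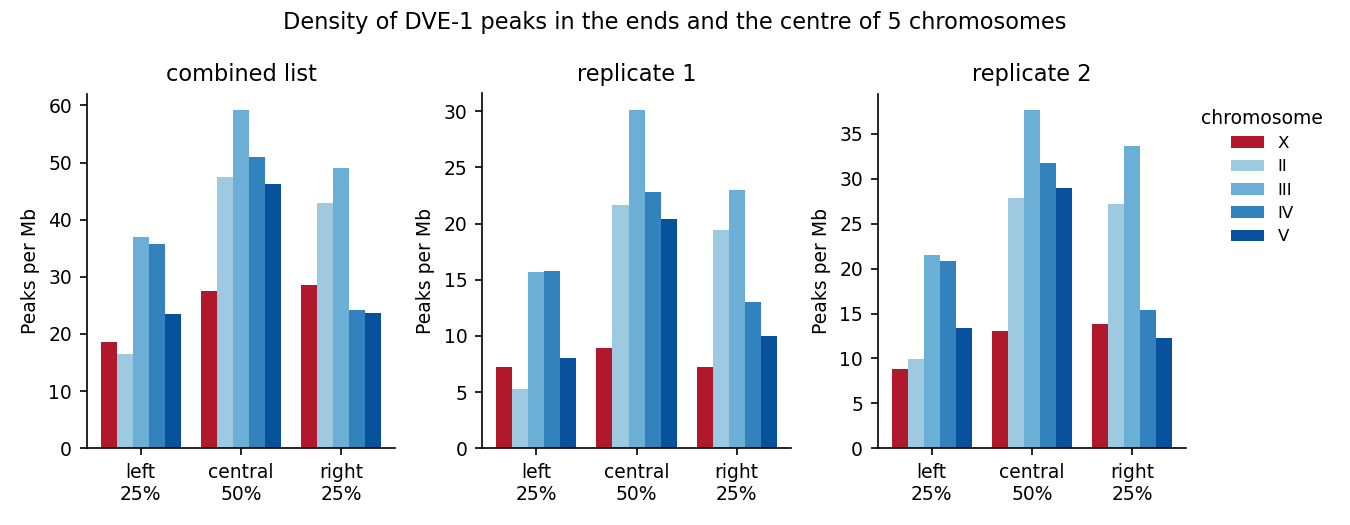
Bars give peaks per Mb (vertical, a scale of its own in each panel) in the left 25%, the central 50% and the right 25% of X, II, III, IV and V, for the combined list and each replicate list. The bars of X are lowest in the centre of every panel (27.6 per Mb in the combined list), but not in the combined left or right ends.

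The sites of X had a higher median width than those of II to V. The median width was 672 bp on X (lower to upper quartile 463 to 1117 bp), against 517 bp on II to V (375 to 832 bp), a ratio of 1.30. Among single chromosomes the medians were 672 bp on X and 546, 500, 518.5 and 505.5 bp on II, III, IV and V. Replicate 1 gave 703 bp on X, against 544 bp on II to V, and replicate 2 gave 693 bp, against 514 bp. X had the highest median of the 5 chromosomes in each list, for which the exact permutation over chromosomes gave p = 0.2, the smallest it allows.

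The higher median was not seen among the strongest sites. All combined peaks were put into 10 groups of equal size by q-value. The median on X exceeded that of each of II, III, IV and V in 9 of 10 groups. In these groups the median on X was 1.13 to 1.49 times the pooled median of II to V. In group 4, for example, it was 811 bp on X, against 543 bp on II to V. In group 1, the strongest, the order turned: 1218 bp on X (40 peaks), against 1677 bp on II to V (289 peaks), a ratio of 0.726. The median of X was there below that of each autosome of the set, from 1351 bp on III to 2103 bp on V. The quartiles of group 1 did not turn, at 860 and 2770 bp on X and 772 and 2677 bp on II to V. This grouping was chosen after the data were seen, and the chromosome permutation for group 1 gave an exact p of 0.4.

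With fewer but wider peaks, X had 2.40% of its length under combined peaks, against 3.17% on II to V. The share of peaks over 4000 bp was 1.11% on X (5 peaks) and 1.21% on II to V (33 peaks). Without these peaks the ratio of median widths was 1.30, as with them. Within X the median width was 605 bp in the left 25%, 715 bp in the centre and 641.5 bp in the right 25%.

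**Figure D4:**
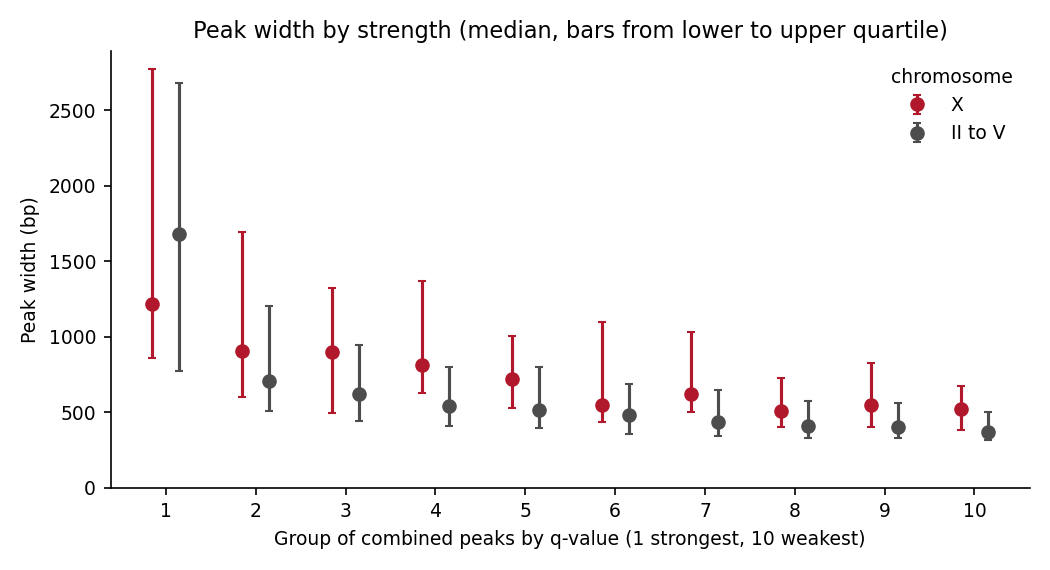
Points are median widths of combined peaks in bp (vertical), with bars from the lower to the upper quartile, in 10 groups of equal size over the whole list by q-value (horizontal, 1 strongest), for X and for II to V. The median of X lies above that of II to V in groups 2 to 10 and below it in group 1 (1218 bp on X, 1677 bp on II to V).

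The median combined q-value was 5.43e-07 on X, against 6.07e-08 on II to V. Group 10, the weakest, held 12.6% of the peaks of X, against 9.52% of those of II to V, and group 1 held 8.87%, against 10.6%. Of the 100 strongest peaks, X had 15 in the combined list, 16 in replicate 1 and 11 in replicate 2, beside 12.2%, 9.23% and 10.04% of all peaks in these lists. These shares were not tested.

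The last comparison asked which X sites the replicate lists also held, by an overlap of at least 1 bp. Both replicates held 116 of the 451 (25.7%, exact 95% interval 21.7 to 30.0), beside a background of 35.0% over the whole combined list and 37.8% on II to V (1031 of 2730, 35.9 to 39.6). The difference from II to V was -12.0 points (Fisher's exact two-sided p = 5.94e-07, adjusted p = 2.67e-06). Neither replicate held 221 (49.0%, 44.3 to 53.7), beside 40.1% over the whole list and 36.9% on II to V (adjusted Fisher's exact p = 4.35e-06). Replicate 2 alone held 92 (20.4%), against 20.7% on II to V, and replicate 1 alone held 22 (4.88%), against 4.62%. The shares held by a single replicate thus differed by under 1 point, and the deficit of shared sites on X had its counterpart in sites called in the combined list alone. Over the whole list 1294 of 3702 peaks were in both replicates and 1483 in neither. What these counts leave for peaks outside X and II to V gives shares nearer those of X than those of II to V. Low support was thus not shown to be particular to X among all chromosomes.

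Support fell steeply with strength. The combined and replicate lists come from the same 2 ChIP libraries, so combined strength and a replicate call are not independent. Of the strongest 112 peaks on X, 97 were in both replicates (86.6%) and 1 in neither. Of the next 113, 17 were in both and 54 in replicate 2 alone. Of the weakest 113, 1 was in both and 105 in neither (92.9%). Weaker peaks were commoner on X, so the shares were also compared within the 10 q-value groups.

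There the common odds of being held by both were 0.401 times those on II to V (Mantel-Haenszel, 95% interval 0.265 to 0.606), beside a crude odds ratio of 0.571. The average difference within groups was -5.88 points, smaller than the crude one in points but not in odds. X had the lower share in 7 of the 10 groups. In 2 of these nearly no peak was in both replicates on either side: 0 of 57 on X against 2 of 248 in group 8, and 0 of 56 against 1 of 265 in group 9. The widest difference was in group 5, where 1 of 42 peaks on X was in both replicates, against 70 of 274 on II to V (25.5%). In group 1 all 40 were, against 287 of 289. Support also changes with strength inside a group, so the groups do not fully level it.

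**Figure D5:**
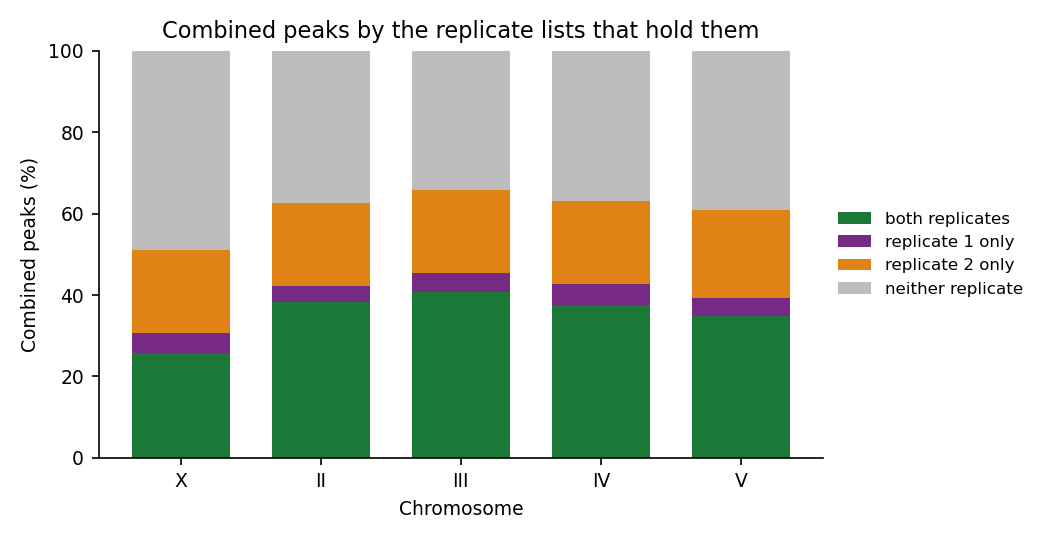
Stacked bars divide the combined peaks of each chromosome (vertical, %) by the replicate lists that overlap them by 1 bp or more. X has the lowest share held by both replicates (25.7%) and the highest held by neither (49.0%) of the 5 chromosomes shown. Chromosome I is not shown.

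Between the replicate lists themselves, 119 of the 143 replicate 1 peaks on X overlapped a peak of replicate 2 (83.2%, exact 95% interval 76.1 to 88.9), against 1103 of 1231 on II to V (89.6%, 87.8 to 91.3; Fisher's exact p = 0.0333, adjusted p = 0.0374). In the other direction it was 119 of 215 on X (55.3%, 48.4 to 62.1), against 1078 of 1677 on II to V (64.3%, 61.9 to 66.6; Fisher's exact p = 0.0130, adjusted p = 0.0195). Among the stronger 50% of each list the first difference was 0.218 points (Fisher's exact p = 1) and the second -3.65 points (p = 0.505), so neither held there. Where a site was paired 1 to 1, starts differed by a median of 49.5 bp over 116 pairs on X, against 43 bp over 998 pairs on II to V, and ends by 58 bp, against 44 bp. Starts within 100 bp of each other made up 68.1% on X, against 74.7% on II to V, and ends 71.6%, against 73.9%, differences that were not tested. The combined list overlapped all 143 replicate 1 peaks of X and 213 of the 215 of replicate 2.

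The strongest X sites without full support were led by X:6273536-6274636 (1101 bp, q = 3.80e-20), called in replicate 2 alone, followed by X:3127278-3128191 (q = 6.35e-16) and X:12480362-12480813 (q = 7.70e-16). Called in replicate 1 alone were X:6532843-6534959 (2117 bp, q = 4.29e-18), X:7961943-7962895 (q = 1.91e-12) and X:10218360-10219201 (q = 1.75e-11). In neither replicate were X:3968456-3970571 (2116 bp, q = 2.43e-12), X:5429202-5429831 (q = 7.23e-10) and X:9550464-9551525 (q = 8.80e-10). A missing call does not mean that DVE-1 was absent from the site.

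Close neighbours were less frequent on X. Of its 450 neighbouring pairs, 53 were under 1000 bp apart (11.8%, exact 95% interval 8.95 to 15.1), against 427 of 2726 on II to V (15.7%, 14.3 to 17.1), a difference of -3.89 points (Fisher's exact p = 0.0331, adjusted p = 0.0374). It missed the 0.05 threshold in the list of replicate 1 (p = 0.0654), in the stronger 50% of the combined list (p = 0.0733) and among peaks held by both replicates (p = 0.0968), all by Fisher's exact test. X was below each autosome of the set, from 14.4% on V to 17.2% on III, but its interval overlapped each of theirs. Fewer close gaps also go with sparser peaks, and X had 25.6 combined peaks per Mb, against 40.5 on II to V. Whether close neighbours were rarer on X than its lower density gives was not tested. No gap in any list on these 5 chromosomes was under 201 bp.

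There were 8 runs of 3 or more combined peaks with such gaps on X, with 26 peaks (5.76% of X), against 73 runs with 236 peaks on II to V (8.64%). By single autosome this share ran from 6.58% on V to 10.5% on III. The longest run had 4 peaks on II, 5 on III, 7 on IV and 3 on V. The longest on X had 4 peaks, as on II, at X:8016902-8023303 and X:8154309-8157456. The lowest q-values in them were 1.77e-09 and 9.57e-06, and no member of either was held by both replicates. The next, X:6735458-6745184, had 3 peaks, of which the 4895 bp peak given above was the strongest (q = 1.05e-39).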

How the data were processed

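The peak lists of ChIP replicates 1 and 2 and a combined list were used as deposited, with no filter. The authors' caller was PeakSeq, per the source column of the lists, and the build is WormBase WS180, per the file headers. Each deposited score is a q-value, and starts and ends count from 1 with both ends included. Not given in the sources used here are the caller's version and thresholds, the aligner, which input was used and how the combined list was made. Because q-values depend on depth and width, they served to rank peaks within a list, and values of different lists are set side by side with no change read from them.

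Python 3.11.15, numpy 2.4.6, pandas 2.3.3, scipy 1.17.1, statsmodels 0.14.6 and matplotlib 3.10.9 were used. Overlaps were tested on simulated data, and 6 of 6 overlap counts on X equalled those of bedtools 2.31.1. The length of a chromosome was its highest peak end in any list. Peaks were placed by midpoint. Fisher's and binomial tests were exact, and p-values were adjusted (Benjamini-Hochberg) over 9 tests. Groups by q-value were cut over the whole combined list.

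Named sites were the 10 strongest and 10 widest, the 3 strongest of each kind of incomplete support, the longest gaps, the fullest and emptiest windows, the widest replicate peaks and the longest runs. Members, lists and tests were chosen with earlier results of these data known. Genes per chromosome came from RefSeq WBcel235, which gave no positions. No genome in WS180 was used, so no sequence is shown.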

Additional observations from a re-analysis of the deposited data

How the results depend on the processing

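Of 54 alternative values for the 9 results, 11 came from settings chosen after seeing the data (X against each autosome, leaving a replicate out of the support shares, and widths by strength). In all, 39 kept direction and side of the 0.05 threshold, 1 had no test, 11 kept direction but missed the threshold, 1 was a ratio of 1 with no direction, and 2 reversed; beyond what the alternatives' construction shows, the cause was not tested. The density ratio per Mb was 0.430 to 0.733 (0.444 and 0.490 in the single replicate lists), the highest against V alone. Per protein-coding gene it was 0.869. The central share difference was -9.30 to -6.99 points, past the threshold except in replicate 1 (-8.44 and, in replicate 2, -9.30) and among peaks held by both replicates (-9.03). The width ratio ranged from 1.29 to 1.38 (1.29 and 1.35 in single replicates), save 0.726 in the strongest 10% of peaks, where it reversed. The left to right ratio was 1 and 0.639 in single replicates, 0.745 in the stronger 50% and 0.767 in peaks held by both replicates, the last 2 past no threshold with fewer peaks. Close neighbours differed by -5.32 and -4.85 points in single replicates, -4.43 in the stronger 50% and -4.91 in peaks held by both. The share held by both differed by -12.4 to -5.88 points and that held by neither by 5.91 to 14.8, past the threshold in every alternative; with a single replicate the shares are complements, so -12.4 and -11.8 repeat as 12.4 and 11.8 and these 2 pairs count once each. Replicate 1 peaks held by replicate 2 differed by -1.81 points at 50% mutual overlap, -4.01 with midpoints within 200 bp and 0.218 (reversed) in the stronger 50%, none past the threshold. The opposite share differed by -6.54 at 50% mutual overlap (Fisher's exact p = 0.0797) and -3.65 in the stronger 50%, both missing the threshold. With midpoints within 200 bp it differed by -7.67 points, past the threshold (Fisher's exact p = 0.0356). No paired analysis was possible because numbers are shared by ChIP and input libraries, and no list of the input was used here. Depth is unknown, so a missing peak can be below detection.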
